A study of Mus musculus with 24 samples.

Results

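Gene expression at day 7 of thermogenic adipocyte differentiation was compared between cells that received Cre recombinase and the NFIA Δpro#3 mutant (Cre + NFIA Δpro#3, called the mutant here) and ctrl cells, with 3 RNA-seq libraries each. Each library listed 24825 genes, and the comparison covers the 11878 genes with at least 1 FPKM in at least 3 of these 6 libraries, where FPKM is counted fragments scaled to gene length and library size. The cells were the stromal vascular fraction of mouse inguinal white adipose tissue, the cells left once mature adipocytes are removed, among them precursors, from *Nfia* flox/flox mice, in which exon 2 of *Nfia* lies between loxP sites. All groups were immortalised with a retrovirus for SV40 large T antigen, and ctrl cells kept the floxed alleles and received an empty retrovirus. Mutant cells received a retrovirus for Cre and a pMXs retrovirus for FLAG-tagged NFIA without pro#3, the C-terminal part of its proline rich domain. Both were differentiated from confluence with isobutylmethylxanthine, indomethacin, dexamethasone, insulin, T3 and rosiglitazone, a PPARγ agonist, and then with insulin, T3 and rosiglitazone. The series also holds both cell types at day 0 and, on both days, cells labelled Cre (Cre alone) and Cre + NFIA (Cre with full-length NFIA, also FLAG-tagged), 24 libraries in 8 groups. The comparison asks how far cells that carry the mutant are from cells that kept their own *Nfia*. Whether replicates were separate cultures, and whether any line was 1 clone, is not given in the sources used here, so p-values measure only the spread between these libraries, which may be technical.

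NFIA is one of the nuclear factor I (NFI) transcription factors, which bind DNA as dimers through an N-terminal domain and act on transcription through their C-terminal part. It is known as a regulator of brown and beige adipocyte differentiation. Precursors become adipocytes under PPARγ and C/EBPα, which sustain each other and switch on genes of lipid uptake, synthesis, storage and release, while genes of the fibroblast-like precursor are switched off.

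Totals were 10.5 to 14.11 M reads in ctrl and 11.67 to 12.69 M reads in the mutant libraries at day 7, and 11.28 to 13.09 M reads at day 0. A count of 3 reads, taken as the floor of detection, was 0.213 to 0.286 FPKM in ctrl and 0.236 to 0.257 FPKM in the mutant for a gene of 1 kilobase, and it covers counting error only. The first principal component separated the groups and held 88.4% of the variance. Mutant replicate 1 stood apart within its group, since 407 of the 472 genes called lower below had their lowest mutant value there. Of 6 adipocyte markers (*Adipoq*, *Plin1*, *Cidec*, *Lipe*, *Fabp4* and *Lep*), 5 were tested and all 5 were lower in the mutant. Their summed level was 19800 to 23300 FPKM in ctrl and 627 to 1750 FPKM in the mutant at day 7, against 16.5 to 19.3 and 27.0 to 37.5 FPKM at day 0, and *Lep* was under 1 FPKM. In bulk RNA, fewer adipocytes and less adipocyte RNA per cell cannot be told apart. Of 8 macrophage markers 3 were tested and all 3 were higher in the mutant, with sums of 5.31 to 5.93 FPKM in ctrl and 9.78 to 10.5 FPKM in the mutant, while the defining markers *Adgre1*, *C1qa*, *C1qb* and *Itgam* were at 0 in all 6 libraries. Endothelial marker sums were 1.55 to 2.04 and 4.47 to 5.03 FPKM, pericyte and smooth muscle sums 13.5 to 13.9 and 14.2 to 17.3 FPKM, mesothelial sums 6.15 to 8.78 and 5.89 to 8.48 FPKM, and Schwann cell sums 3.66 to 3.99 and 1.93 to 2.27 FPKM in ctrl and mutant. Epithelial and T and B cell markers summed to under 1 FPKM in each of the 6 libraries. The part of other cell types in the results was not tested.

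The mutant libraries lacked most of the adipocyte gene expression seen in ctrl, and most tested precursor marker and chemokine genes were higher. Calls required an adjusted p under 0.05 (limma, Benjamini-Hochberg) and a change of at least 3-fold, on log2(FPKM + 1), a scale that makes the change of low genes smaller. By this rule 472 genes (3.97% of those tested) were lower and 96 (0.808%) were higher in the mutant. The called genes were lower in 83.1% of cases, and in 91.0% with median-of-ratios size factors, which gave 537 lower and 53 higher. The share of lower calls was smaller in other settings. Adding 0.1 FPKM before the log gave 640 lower and 283 higher, and limma voom on recovered reads gave 645 lower and 321 higher. Of the lower genes 304 were at least 4-fold, 104 at least 8-fold and 25 at least 16-fold lower, while of the higher genes 21 were at least 4-fold and 4 at least 8-fold higher. The ctrl and mutant libraries did not overlap in 470 of the 472 lower and in all 96 higher genes. A lack of overlap therefore does not set a called gene apart. For genes named by the size of their change it was a condition of the choice. Without mutant replicate 1 the calls were 448 lower and 94 higher. Without the fold limit the balance was opposite, with 2952 genes (24.9%) lower and 4772 (40.2%) higher, and median-of-ratios scaling turned it to 3853 lower and 3561 higher. The median log2 fold change of all tested genes was 0.13 as deposited, and median-of-ratios scaling moved it by -0.14. The filter itself let in 220 genes that had 1 FPKM or more in all ctrl libraries and in no mutant library, of which 83 were called lower, and 253 with the opposite pattern, of which 5 were called higher.

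**Figure D1:**
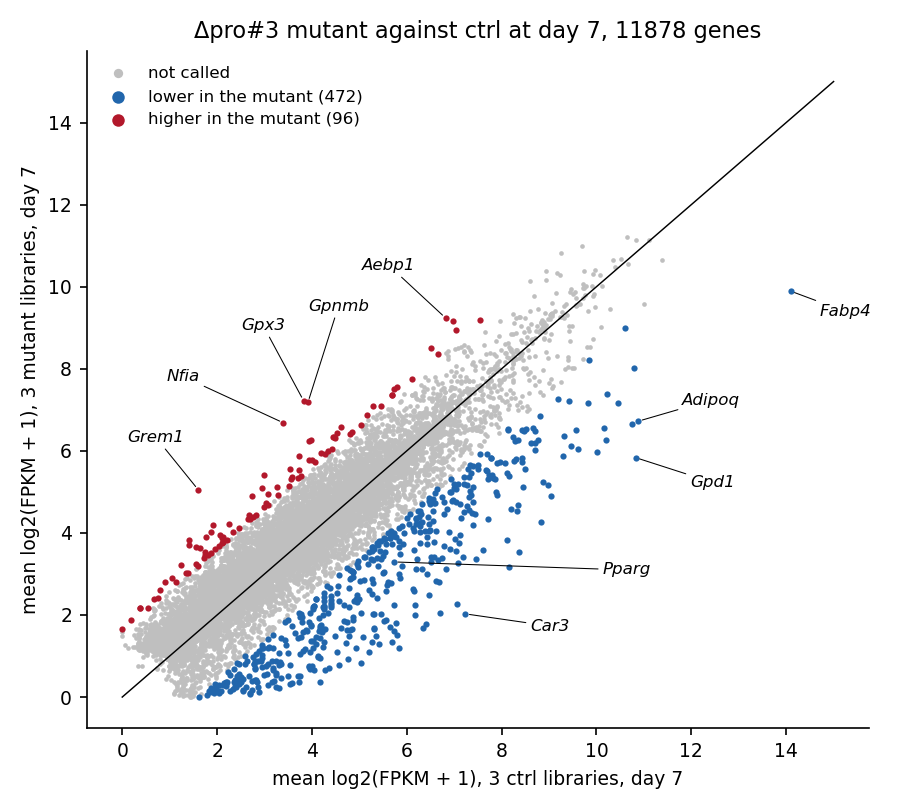
Mean log2(FPKM + 1) of each of the 11878 tested genes in the 3 ctrl libraries (horizontal axis) and the 3 mutant libraries (vertical axis) at day 7, with the line of equal level. The 472 genes called lower (blue) reach from low levels up to *Fabp4*, the most abundant of them, and the 96 called higher (red) lie closer to the line.

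*Nfia* itself was examined first, as a check of the labels, and values of single libraries are given in the order of replicates 1, 2 and 3. *Nfia* (chromosome 4, 97439425 to 97868605 of mm9) was at 9.81, 9.15 and 9.70 FPKM in ctrl replicates 1, 2 and 3 and at 111, 99.5 and 95.0 FPKM in mutant replicates 1, 2 and 3. Every mutant library was above every ctrl library (10.7-fold, limma adjusted p = 2.87e-07, log2 fold change 3.28, SE 0.073). Reads of the floxed gene and of the transgene cannot be told apart in this value. In libraries labelled Cre, which have no transgene, the mean was 10.1 ± 0.588 FPKM (SD, n = 3), so the gene-level value does not check the Cre label. Full-length NFIA stood at a level near that of the mutant, 90.0 ± 6.68 FPKM in Cre + NFIA. *Nfib*, a close relative of *Nfia*, was at 15.3, 14.3 and 15.9 FPKM in ctrl and at 0.946, 1.58 and 2.32 FPKM in the mutant. It fell below all ctrl libraries, 9.39-fold (limma adjusted p = 3.52e-06, log2 fold change -2.66, SE 0.17), and *Nfib* was the one member of the family called lower. *Nfix* was modestly higher, at 38.9 ± 2.32 FPKM in ctrl and 64.3 ± 1.69 in the mutant (log2 fold change 0.71, limma adjusted p = 1.84e-05). *Nfic*, at 60.1, 64.0 and 59.3 FPKM in ctrl against 62.4, 69.2 and 66.8 FPKM, did not pass the test (log2 fold change 0.11, limma adjusted p = 0.152), and its sign turned to -0.044 with median-of-ratios scaling.

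*Pparg*, which encodes the central regulator of adipogenesis and the target of rosiglitazone (chromosome 6, 115311239 to 115440419), was at 50.1, 51.2 and 54.8 FPKM in ctrl and at 6.38, 9.29 and 11.4 FPKM in the mutant. All mutant libraries were below all ctrl libraries, 5.77-fold in the means (limma adjusted p = 3.88e-06, log2 fold change -2.43, SE 0.16). *Cebpa*, which encodes C/EBPα, was at 138, 175 and 150 FPKM against 16.8, 29.1 and 29.5 FPKM, and it too was lower without overlap (limma adjusted p = 7.12e-06, log2 fold change -2.60, SE 0.20). *Mlxipl*, the carbohydrate-responsive factor ChREBP, was 20.2-fold lower, *Nr1h3*, the oxysterol receptor LXRα, 9.80-fold, and *Srebf1*, which drives fatty acid synthesis genes, 5.78-fold, the largest, the second and the fourth change of the list on the log2 scale. Of 16 tested adipogenic regulators 9 were lower and 2 higher at an adjusted p under 0.05, and the 5 called were the genes just named. The list median was -0.72, beside 0.13 over all genes. At that adjusted p 24.9% of all tested genes were lower and 40.2% higher, the background for the list counts that follow. The early factors *Cebpb* and *Cebpd* stood at log2 fold changes of -0.11 and 0.69, the precursor factors *Ebf1* and *Zfp423* at -0.09 and -1.32, and *Klf15* and *Rxra*, which act in the differentiated cell, at -0.27 and -0.14, none of which reached 3-fold.

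Genes that bring fatty acids into the cell were among the most abundant genes lost. *Fabp4* encodes the adipocyte fatty acid binding protein and is a target of PPARγ (chromosome 3, 10204347 to 10208576). It took 1.07% to 1.26% of all reads in ctrl and 0.0336% to 0.0927% in the mutant libraries. Its level was 15700, 18500 and 18400 FPKM in ctrl libraries and 494, 1270 and 1360 FPKM in the mutant, where replicate 1 was the lowest. The means differed 16.8-fold (limma adjusted p = 1.18e-05, log2 fold change -4.20, SE 0.35), and the log2 fold change was -3.73 without mutant replicate 1. Without the filter on low values its limma adjusted p was 0.0705. The fatty acid transporter *Cd36* was at 511, 488 and 589 FPKM against 14.4, 33.6 and 48.7 FPKM, 16.4-fold lower with no overlap. *Aqp7*, a glycerol channel, and *Acsl1*, which activates fatty acids with coenzyme A, were 20.3-fold and 11.2-fold lower. Of 14 tested genes of fatty acid uptake and activation 9 were lower and 4 higher at an adjusted p under 0.05, 7 were called, all of them lower, and the median was -1.84. With median-of-ratios scaling 9 were lower and 2 higher.

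The enzymes that make fatty acids and triglycerides were lower as well. *Scd1*, the desaturase that makes oleate, was at 978, 1130 and 1320 FPKM in ctrl and at 74.5, 90.2 and 120 FPKM in the mutant (12.1-fold, limma adjusted p = 9.25e-07, log2 fold change -3.60, SE 0.17). *Thrsp*, a gene of lipogenic tissues, was at 65.0, 91.1 and 88.6 FPKM against 0.855, 3.08 and 3.43 FPKM. Its means differed 33.2-fold, with mutant replicate 1 again the lowest. Of 15 tested genes of fatty acid synthesis 14 were lower and 1, *Elovl6*, was higher (log2 fold change 0.25, not passing with median-of-ratios scaling), 10 were called lower, and the median was -2.51. *Gpd1* makes glycerol 3-phosphate, the backbone of triglycerides (chromosome 15, 99547946 to 99555436). Its level was 1600, 1990 and 1880 FPKM in ctrl libraries and 28.1, 73.1 and 85.1 FPKM in the mutant. This was 29.4-fold lower (limma adjusted p = 4.67e-06, log2 fold change -4.99, SE 0.35). *Pck1*, the glyceroneogenesis enzyme, was 28.6-fold lower, and the acyltransferases *Agpat2* and *Gpat3* were 16.1-fold and 10.6-fold lower. Of 14 tested genes of triglyceride synthesis 12 were lower and 2 higher, 9 were called lower, and the median was -2.18.

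**Figure D2:**
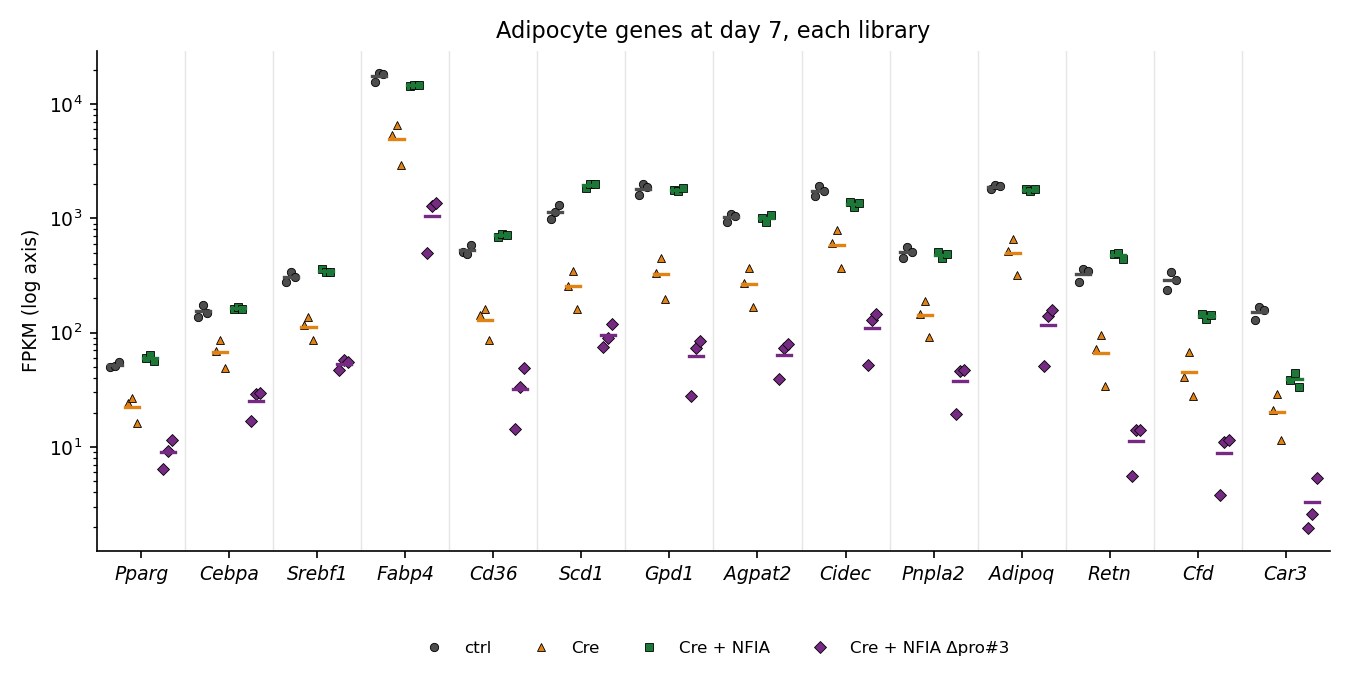
FPKM (log axis) of 14 adipocyte genes in each day 7 library, with points for the 3 libraries and a line for their mean in ctrl cells, cells labelled Cre, Cre + NFIA cells and the mutant. All mutant libraries lie below all libraries of the other 3 cell types in these genes, and one mutant library, replicate 1, is the lowest in each of them.

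Lipid droplet genes formed the list with the lowest median, -3.23. *Cidec*, a protein that fuses lipid droplets, was at 1580, 1900 and 1720 FPKM in ctrl and at 52.5, 128 and 146 FPKM in the mutant (15.9-fold lower, limma adjusted p = 9.72e-06, log2 fold change -4.11, SE 0.33). *Adrb3*, the β3-adrenergic receptor through which catecholamines start lipolysis, was 28.0-fold lower. *Pnpla2*, which encodes the triglyceride lipase ATGL, was 13.3-fold lower, and its inhibitor *G0s2* was 14.4-fold lower, so genes on both sides of lipolysis were lower. Of 17 tested members 14 were lower at an adjusted p under 0.05, and all 14 of them were called.

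Secreted products of adipocytes included several of the genes with the largest changes. *Cfd*, the serine protease adipsin (chromosome 10, 79353598 to 79355401), was at 238, 337 and 287 FPKM in ctrl and at 3.81, 11.1 and 11.4 FPKM in the mutant, 32.8-fold lower (limma adjusted p = 3.69e-06, log2 fold change -4.99, SE 0.33). *Retn*, which encodes resistin (chromosome 8, 3655770 to 3660110), was 29.0-fold lower, *Rbp4*, the retinol carrier, 33.6-fold and *Adipoq*, which encodes adiponectin, 16.2-fold. The ctrl and mutant libraries did not overlap in any of these 4 genes. For *Cfd*, *Retn* and *Rbp4* this was a condition of being named among the largest changes. Of 11 tested adipokines 10 were lower, 7 of them called, and the median was -2.48. Outside the lists, the gene with the largest change was *Car3*, a carbonic anhydrase abundant in adipocytes (chromosome 3, 14863538 to 14872351). Ctrl libraries held 128, 166 and 157 FPKM and mutant libraries 1.96, 2.60 and 5.36 FPKM (45.6-fold lower, limma adjusted p = 9.25e-07, log2 fold change -5.21, SE 0.25). *Orm1*, an acute phase glycoprotein, was 32.1-fold lower, *Ppp1r1a*, an inhibitor of protein phosphatase 1, 30.0-fold, and *Clstn3* 30.7-fold. *Adig*, a small adipocyte protein, was 22.9-fold and *Mrap*, the accessory protein of the melanocortin receptors, 20.1-fold lower.

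Promoters of 4 of these lower genes are shown because they moved together and because NFI proteins are known to bind DNA with the core motif TTGGC. The sequences are from RefSeq on GRCm38.p6, not the mm9 build of the data, and run from 250 bases before to 50 bases after the start, 5′ to 3′ on the strand of the gene. Capitals mark each TTGGC or its reverse complement. Promoters were taken in order of log2 fold change among the lower genes with the largest changes. *Car3*, *Gpd1*, *Orm1* and *Elovl3*, which ranked ahead of *Rbp4*, had no promoter in the set used and are named only. The promoters shown are *Cfd* at chr10:79890603-79890902 on the plus strand, *Retn* at chr8:3655520-3655819 on the plus strand, *Thrsp* at chr7:97417501-97417800 on the minus strand and 1 of 2 promoters of *Rbp4* at chr19:38125272-38125571 on the minus strand.
Cfd: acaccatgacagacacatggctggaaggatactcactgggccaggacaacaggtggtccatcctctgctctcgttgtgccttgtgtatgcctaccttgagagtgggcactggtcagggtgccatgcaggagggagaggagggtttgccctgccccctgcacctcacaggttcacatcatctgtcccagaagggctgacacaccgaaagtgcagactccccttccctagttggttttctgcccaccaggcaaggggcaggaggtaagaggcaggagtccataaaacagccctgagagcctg
Retn: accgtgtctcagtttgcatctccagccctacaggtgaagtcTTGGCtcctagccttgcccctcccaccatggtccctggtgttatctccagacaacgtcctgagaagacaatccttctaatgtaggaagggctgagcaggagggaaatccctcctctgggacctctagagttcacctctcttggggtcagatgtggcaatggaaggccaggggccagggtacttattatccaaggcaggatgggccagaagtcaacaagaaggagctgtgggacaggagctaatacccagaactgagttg
Thrsp: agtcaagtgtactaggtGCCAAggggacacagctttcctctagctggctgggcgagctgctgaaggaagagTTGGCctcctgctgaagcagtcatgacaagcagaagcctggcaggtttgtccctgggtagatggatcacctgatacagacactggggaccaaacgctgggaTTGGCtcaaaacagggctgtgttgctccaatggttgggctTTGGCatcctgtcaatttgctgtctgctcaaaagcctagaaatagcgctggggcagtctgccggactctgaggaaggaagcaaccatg
Rbp4: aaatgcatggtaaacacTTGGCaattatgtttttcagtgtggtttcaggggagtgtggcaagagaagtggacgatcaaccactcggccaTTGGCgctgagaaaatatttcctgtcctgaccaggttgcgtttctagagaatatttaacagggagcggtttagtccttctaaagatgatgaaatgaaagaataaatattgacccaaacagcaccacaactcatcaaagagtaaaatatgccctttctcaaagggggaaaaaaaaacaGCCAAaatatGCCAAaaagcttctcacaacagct
The motif occurred 4 times in the *Thrsp* window, 4 times in that of *Rbp4*, 1 time in that of *Retn* and not in that of *Cfd*. Among promoters in the table, 258 of 431 (59.9%) of the lower genes held it on either strand, against 43 of 84 (51.2%) of the higher genes, 5839 of 11648 (50.1%) of all tested genes and 46.7% of all promoters listed. Promoters were found for 332 of the 472 lower, 66 of the 96 higher and 9140 of the 11878 tested genes. Longer motifs were searched as well and were rare. The NFI palindrome, with the core motif on both strands, was in 0 of 431 promoters of lower genes and 4 of 11648 of tested genes. The PPAR-RXR direct repeat was in 0 of 431 and 3 of 11648. The C/EBP palindrome was in 3 of 431 and 37 of 11648. None of them was in the 84 promoters of higher genes. Such counts are too low to compare the sets. These shares and counts are descriptions, and a motif match is neither a binding site nor a cause.

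Thermogenic genes were low or lower. *Ucp1*, which uncouples respiration to make heat, did not reach the filter, at 0.892, 0.522 and 1.55 FPKM in ctrl libraries and at 0.0521, 0 and 0 FPKM in the mutant. These were 63 reads against 1, a ratio of 0.0161 (exact 95% interval 0.0004 to 0.0928, counting error only). *Ppargc1a* and *Ppara*, which encode the coactivator PGC-1α and the receptor PPARα, stood at 1.44 ± 0.284 and 2.18 ± 0.472 FPKM in ctrl and at 0.157 ± 0.0582 and 0.391 ± 0.0777 FPKM in the mutant. Both passed the test (log2 fold change -1.07 and -1.18, limma adjusted p = 0.000147 and 0.0001) but stayed under 3-fold on the log2(FPKM + 1) scale. *Elovl3*, a fatty acid elongase of brown fat, was at 48.7, 57.2 and 63.1 FPKM against 0.821, 1.36 and 1.80 FPKM, 42.4-fold lower. *Cox8b*, a muscle and brown fat subunit of cytochrome c oxidase, had 164 reads in ctrl and 4 in the mutant, a ratio of 0.0247 (exact 95% interval 0.00665 to 0.0644). *Cox8b*, *Ppargc1a* and *Ppara* met the filter through their ctrl libraries alone, so their test results are descriptions. Of 13 tested thermogenic genes 11 were lower and 1, the brown precursor gene *Zic1*, was higher (log2 fold change 0.96), 6 were called lower and the median was -1.18. Another 8 of the list were not tested, *Dio2* and *Cidea* among them.

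Genes of mitochondrial and peroxisomal fuel use were lower in nearly every member tested. All 26 tested genes of fatty acid oxidation were lower at an adjusted p under 0.05, 21 were called and the median was -2.02. The peroxisomal genes *Acaa1b*, *Pex11a* and *Ehhadh* were 19.1-fold, 9.27-fold and 10.2-fold lower, and the mitochondrial dehydrogenase *Acadl* was at 213, 236 and 241 FPKM in ctrl against 32.2, 42.0 and 43.5 FPKM. All 22 tested genes of the tricarboxylic acid cycle and its entry were lower, 5 were called, and the median was -1.36. *Pcx*, which makes oxaloacetate from pyruvate, was 9.92-fold lower, and *Cs*, citrate synthase, 4.63-fold, from 646, 698 and 710 FPKM to 131, 150 and 162 FPKM. Among 65 tested subunits of the respiratory chain and ATP synthase 64 were lower, 5 were called and the median was -1.09. Their changes were smaller than those of oxidation genes, with *Cycs*, cytochrome c, lowest at a log2 fold change of -2.42 and *Ndufs4* nearest to 0 at -0.07. The calls of *Uqcrq* and *Uqcrc2* were lost under quantile normalization, at log2 fold changes of -1.44 and -1.53.

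Insulin response and cholesterol genes were lower too. *Slc2a4* encodes GLUT4, the insulin-responsive glucose transporter. Its level was 33.4, 41.3 and 42.2 FPKM in ctrl libraries and 0.998, 2.77 and 3.23 FPKM in the mutant, 16.7-fold lower with no overlap. The basal glucose transporter *Slc2a1* was higher, with a log2 fold change of 0.86. *Tusc5*, a GLUT4 trafficking protein, and *Pde3b*, the phosphodiesterase through which insulin limits lipolysis, were 8.73-fold and 4.86-fold lower. Of 16 tested genes 13 were lower and 2 higher, 6 were called lower and the median was -1.15. Of 23 tested genes of cholesterol synthesis and uptake 22 were lower, 9 were called and the median was -1.13. *Insig1*, which holds back SREBP processing, was 10.6-fold lower, and the enzymes *Pmvk*, *Lss* and *Dhcr7* were 6.49-fold, 6.24-fold and 5.45-fold lower.

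**Figure D3:**
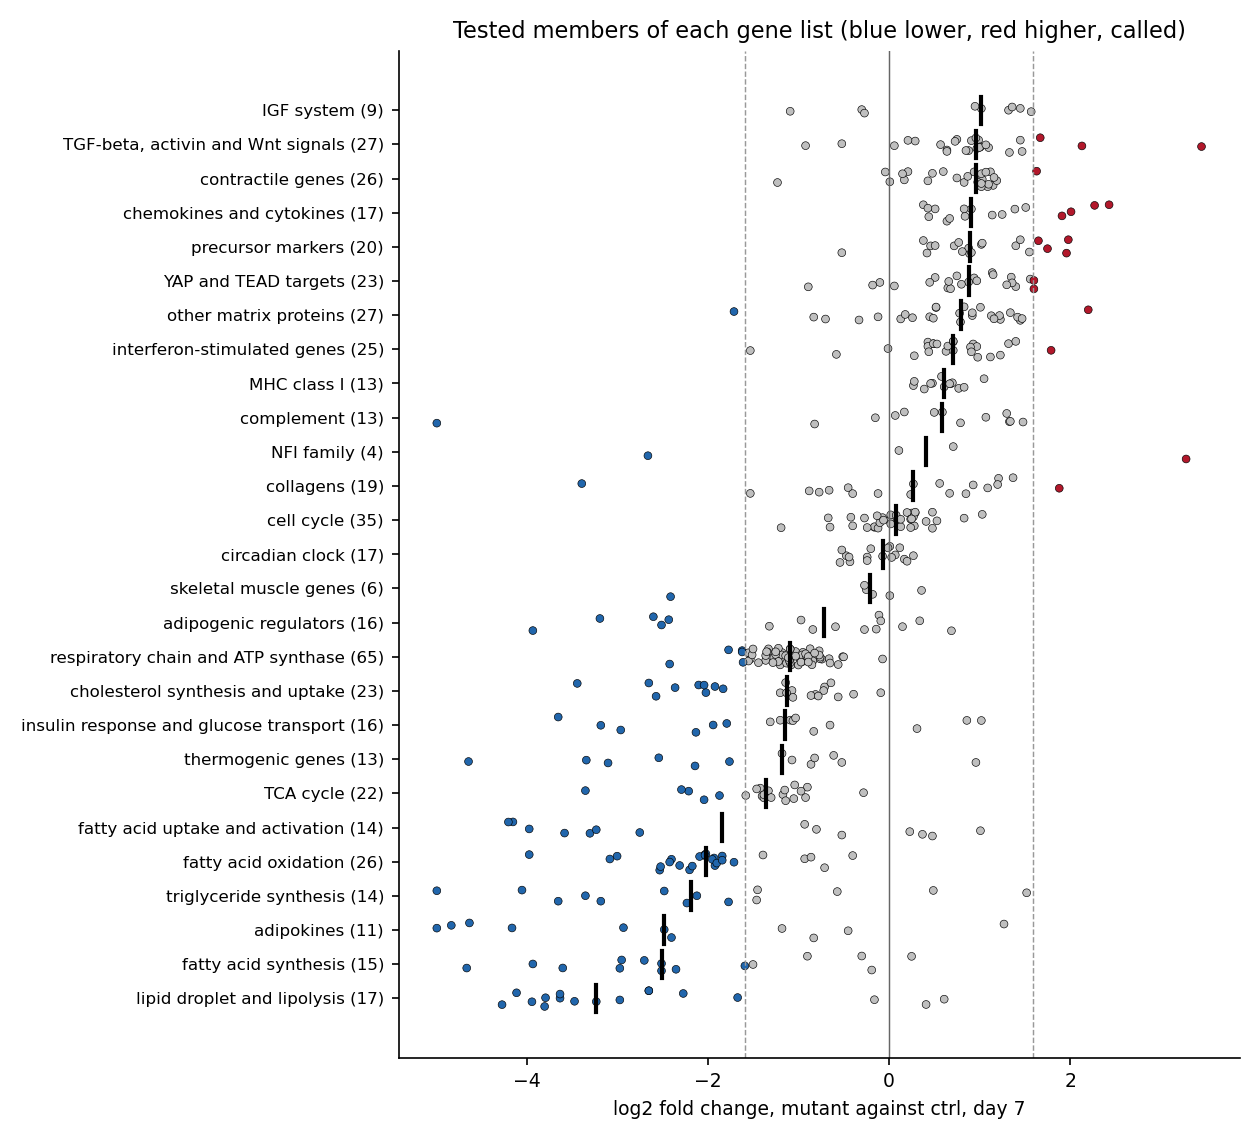
Log2 fold change of mutant against ctrl at day 7 (horizontal axis) for every tested member of 27 gene lists (rows, with the number tested), where blue and red points are called lower and higher, bars are list medians and dashed lines mark 3-fold. Lipid droplet, fatty acid synthesis and adipokine genes have the lowest medians, and precursor, signalling and chemokine lists lie between 0.88 and 1.02.

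The called genes that were higher had smaller changes, with a median log2 fold change of 1.76 against -2.26 for the lower genes. *Grem1* encodes gremlin, a secreted antagonist of bone morphogenetic proteins (chromosome 2, 113586321 to 113598803). Ctrl libraries held 2.09, 1.28 and 2.98 FPKM and mutant libraries 34.2, 29.7 and 32.7 FPKM, and the groups lay far apart (15.2-fold, limma adjusted p = 1.35e-06, log2 fold change 3.45, SE 0.18). *Gpx3*, a secreted glutathione peroxidase, was at 14.6, 12.9 and 12.1 FPKM against 138, 178 and 133 FPKM (11.3-fold, log2 fold change 3.39, limma adjusted p = 6.53e-07). *Gpnmb*, a membrane glycoprotein, was at 16.9, 12.4 and 13.3 FPKM against 147, 138 and 147 FPKM, 10.1-fold higher. Together with *Nfia* these were the 4 genes at least 8-fold higher. *Aebp1*, which encodes a secreted collagen-binding protein, was at 125, 105 and 106 FPKM against 591, 604 and 614 FPKM. *Col2a1*, the fibrillar collagen of cartilage, *Gfra1*, a receptor of glial cell line-derived neurotrophic factor, *Uap1l1* and *Prl2c2* were 7.99-fold, 7.36-fold, 5.25-fold and 5.13-fold higher. *Prl2c2* belongs to a family of similar genes, so its reads are uncertain.

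Markers of adipocyte precursors were higher in the mutant in 19 of 20 tested members, with 1 lower, *Clec3b* (log2 fold change -0.52), and a median of 0.90. *Cd9*, a tetraspanin, was at 25.3, 23.3 and 21.6 FPKM in ctrl and at 106, 100 and 82.0 FPKM in the mutant (4.10-fold, limma adjusted p = 1.27e-06, log2 fold change 1.98, SE 0.10). *Cd24a*, a surface glycoprotein of early precursors, was 4.67-fold higher, *Anxa3* 3.38-fold and *Eng*, the TGF-β coreceptor endoglin, 3.64-fold, and these were the 4 called. *Eng* lost its call with median-of-ratios size factors (log2 fold change 1.51). The precursor receptors *Pdgfra* and *Pdgfrb* stood at log2 fold changes of 1.02 and 1.40.

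Matrix genes went both ways. *Col12a1*, a fibril-associated collagen, was at 24.5, 18.1 and 20.2 FPKM in ctrl and at 76.7, 82.4 and 78.8 FPKM in the mutant, 3.79-fold higher. *Col15a1*, a basement membrane collagen, was at 199, 224 and 208 FPKM against 13.1, 22.0 and 24.2 FPKM, 10.6-fold lower. Neither gene's groups overlapped. Of 19 tested collagens 10 were higher and 7 lower with a median of 0.27, beside 40.2% higher and 24.9% lower over all tested genes. *Thbs2*, which encodes thrombospondin 2, was at 141, 111 and 122 FPKM against 578, 565 and 588 FPKM (4.62-fold, log2 fold change 2.20, limma adjusted p = 6.63e-07). Fibronectin, the product of *Fn1*, was 2.72-fold higher at the RNA level, from 492 ± 82.6 to 1340 ± 39.6 FPKM. Of 27 other matrix genes 20 were higher and 4 lower, with *Thbs2* called higher and the basement membrane laminin *Lama4* called lower (3.37-fold). The medians of both lists stayed above 0 with median-of-ratios size factors, at 0.11 and 0.65.

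Contractile genes and targets of YAP and TEAD, factors that respond to cell shape and tension, were higher in most tested members. Of 26 tested contractile genes 21 were higher and 1, the smooth muscle myosin *Myh11*, was lower (2.78 ± 0.261 FPKM in ctrl and 0.613 ± 0.121 FPKM in the mutant), and the median was 0.96. *Myh11* met the filter through its ctrl libraries alone. *Zyx*, a focal adhesion protein, was at 47.7, 46.1 and 36.2 FPKM against 143, 140 and 123 FPKM, 3.13-fold higher and the 1 called member. *Myl9*, a regulatory light chain of smooth muscle myosin, was at 58.2, 46.1 and 44.5 FPKM in ctrl and at 77.5, 80.8 and 68.1 FPKM in the mutant, a change under 3-fold (limma adjusted p = 0.00123, log2 fold change 0.60, SE 0.11). Of 23 YAP and TEAD targets 19 were higher and 1 lower with a median of 0.88, and *Ankrd1* and *Myof* were called. *Ctgf* and *Cyr61*, the secreted targets most often measured, were 3.03-fold and 2.67-fold higher and were not called. *Ctgf* was under 3-fold on the log2(FPKM + 1) scale, and *Cyr61* was under 3-fold in mean FPKM as well. The calls of *Zyx*, *Ankrd1* and *Myof* were lost with median-of-ratios size factors, at log2 fold changes of 1.47, 1.45 and 1.45.

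Genes of TGF-β, activin and Wnt signalling, ligands, receptors and antagonists among them, were higher in 23 of 27 tested genes and lower in 2, with a median of 0.96. Beside *Grem1* the called genes were *Sfrp4* and *Sfrp1*, secreted proteins that bind Wnt ligands. *Sfrp4* was at 2.64, 2.01 and 2.66 FPKM in ctrl libraries and at 14.3, 13.0 and 14.5 FPKM in the mutant (5.73-fold), and *Sfrp1* at 61.6, 43.5 and 47.5 against 156, 157 and 175 FPKM (3.20-fold). *Sfrp1* was under 3-fold with median-of-ratios size factors (log2 fold change 1.51). The groups did not overlap in either gene. *Inhbb*, an activin subunit, was 2.92-fold higher, and *Axin2*, a common Wnt target, was among the lower genes with a log2 fold change of -0.92.

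All 17 tested chemokine and cytokine genes were higher at an adjusted p under 0.05, with a median of 0.91, and 16 of them with median-of-ratios size factors. *Ccl2* and *Ccl7*, ligands of the monocyte receptor CCR2, were at 141, 128 and 124 and at 103, 91.8 and 76.3 FPKM in ctrl. In the mutant they were at 530, 479 and 478 and at 379, 355 and 363 FPKM, which is 3.77-fold and 4.04-fold higher with no overlap. *Ccl8* was 6.20-fold and *Il1rl1*, the receptor of interleukin 33, 6.01-fold higher. Interferon-stimulated genes were higher in 22 of 25 tested and lower in 2, with a median of 0.71. *Oas3*, which senses double-stranded RNA, was the 1 called (4.23-fold), while *Ifi27* went the other way, from 534 ± 55.9 to 184 ± 14.8 FPKM. Genes of MHC class I presentation were higher in 11 of 13, with a median of 0.61 and the largest value in *H2-T23* (log2 fold change 1.05). Reads of similar H2 genes may be split between them.

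Muscle regulators were near or at 0 in both groups. *Myod1*, the master regulator of myogenesis, had no read in any of the 6 libraries, which allows up to 3 reads in each, and *Myog* had at most 2. Of 33 skeletal muscle genes 6 were tested. *Tnnc2*, a fast muscle troponin, was called, with 124 reads in ctrl and 3 in the mutant, a ratio of 0.0245 (exact 95% interval 0.00498 to 0.0732). *Tnnc2* met the filter through its ctrl libraries alone, so its call is a description. The other 5 stood at log2 fold changes of -0.27 to 0.36.

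At day 0, before differentiation and in libraries the day 7 comparison does not use, 23 genes (0.194%) were called lower and 4 (0.0337%) higher in the mutant. Without the fold limit 3376 genes (28.4%) passed the adjusted p at day 0. The 472 genes lower at day 7 had a median day 0 log2 fold change of 0.02, the same as all tested genes, and 1 of them, *Enpep*, a membrane aminopeptidase, was called lower then. *Enpep* was at 10.4 ± 0.415 FPKM in ctrl libraries and 1.49 ± 0.0566 FPKM in the mutant at day 0, and at 29.5 ± 1.52 and 4.43 ± 1.68 FPKM at day 7. The 96 higher genes had a median of 0.31, with *Nfia* called higher and *Nov*, a secreted matricellular protein, called lower at day 0. *Mgp* and *Apod*, secreted proteins of fibroblasts, and *Cacna1g*, a calcium channel, were the genes furthest below ctrl at day 0, and they did not pass the test at day 7 (limma adjusted p = 0.164, 0.124 and 0.207). *Mgp* was at 7.68 ± 1.31 and 0.514 ± 0.330 FPKM in ctrl and mutant at day 0 and at 14.6 ± 2.61 and 16.9 ± 1.62 FPKM at day 7. *Myl9* was at 49.0 ± 7.06 and 19.7 ± 1.64 FPKM at day 0 (log2 fold change -1.27, limma adjusted p = 0.000815), a direction opposite to that at day 7. Of the 472 genes 177 (37.5%) were under 1 FPKM in all 3 ctrl libraries at day 0, against 2 of 96 (2.08%) higher genes and 4.66% of all tested genes.

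**Figure D4:**
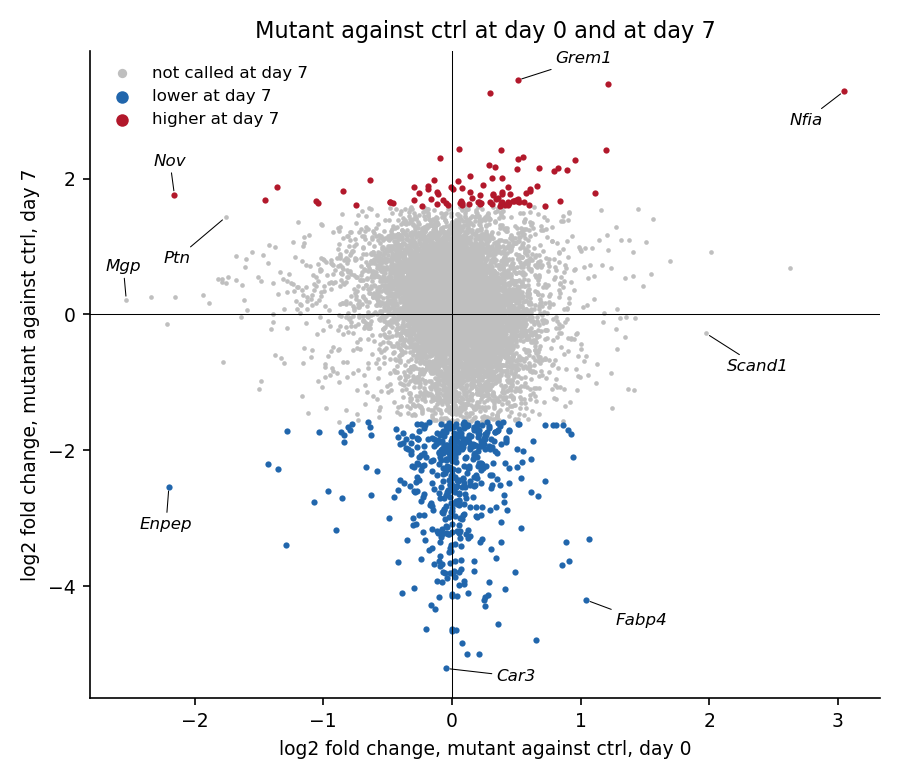
Log2 fold change of mutant against ctrl at day 0 (horizontal axis) and at day 7 (vertical axis) for the 11878 tested genes, coloured by their day 7 call. The 472 lower genes lie around a day 0 median of 0.02 and the 96 higher genes around 0.31, and *Nfia* is high on both days.

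The difference between mutant and ctrl itself differed between the days in a fit over the 12 libraries of both days. It was called lower at day 7 than at day 0 in 557 genes (4.69%) and higher in 242 (2.04%), and these include 436 of the 472 lower and 46 of the 96 higher genes, which share the day 7 libraries. The levels show how the higher genes came apart. In ctrl, 88 of the 96 had a lower mean at day 7 than at day 0, whereas in the mutant 56 had a higher and 40 a lower mean. *Aebp1* had 627 ± 72.1 FPKM in ctrl cells and 814 ± 12.8 FPKM in the mutant at day 0, and the day 7 levels of 112 ± 11.1 and 603 ± 11.9 FPKM were both below those of day 0, with ctrl further below. *Ccl2* was likewise lower at day 7 in both, with 1500 ± 48.9 and 131 ± 8.76 FPKM in ctrl cells and 1780 ± 86.4 and 496 ± 30.2 FPKM in the mutant at day 0 and day 7. *Grem1*, *Gpx3* and *Gpnmb* were instead higher in the mutant at day 7 than at day 0, with 6.31 ± 0.905 FPKM of *Grem1* at day 0. Of the 472 lower genes 471 had a higher mean at day 7 than at day 0 in ctrl, and 416 did so in the mutant, so most of them were above their starting level in the mutant too. *Fabp4* is an example, at 12.2 ± 1.08 FPKM in ctrl and 26.3 ± 4.05 FPKM in the mutant at day 0, and at 1040 ± 477 FPKM in the mutant at day 7. Because the genes were chosen by their day 7 levels in these libraries, those counts are descriptions.

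**Figure D5:**
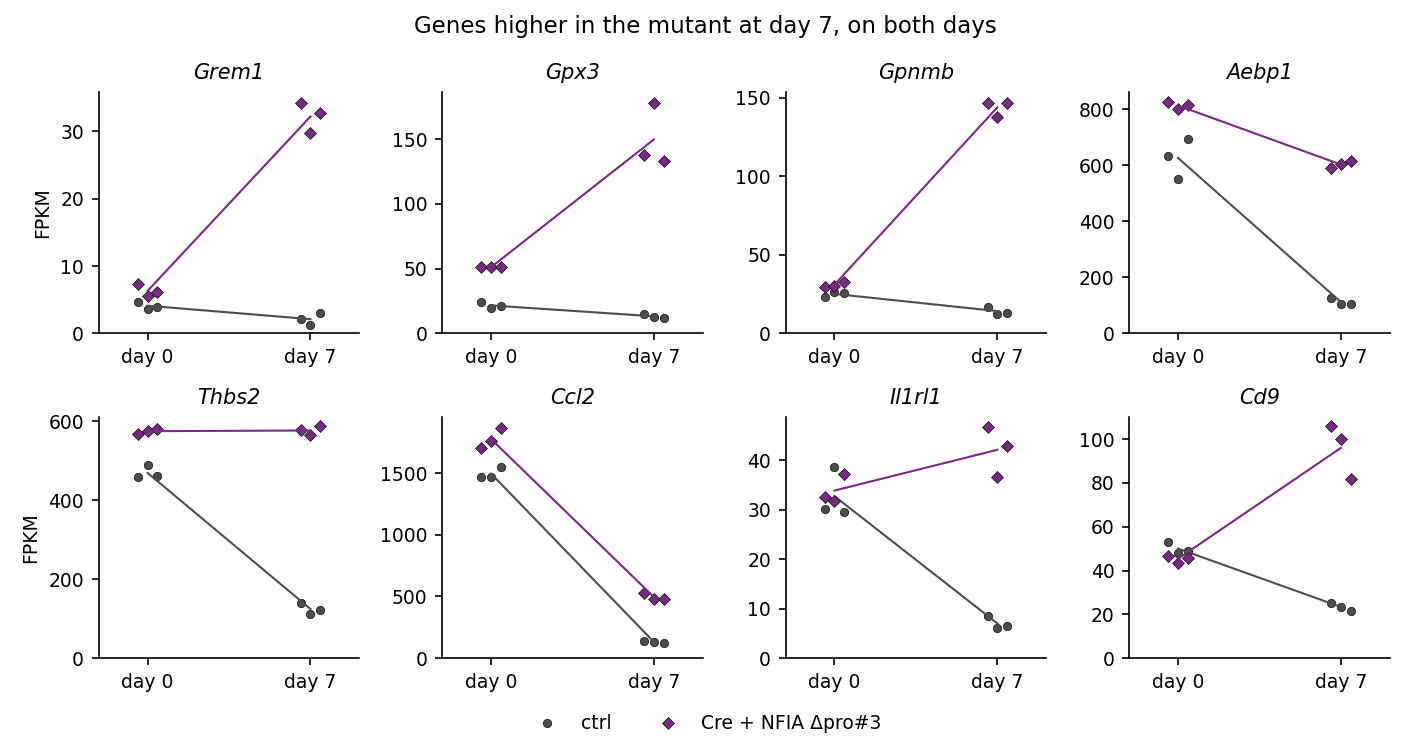
FPKM of 8 genes higher in the mutant at day 7, in each ctrl (grey) and mutant (purple) library at day 0 and day 7, with lines joining the means of 3 libraries. *Grem1*, *Gpx3*, *Gpnmb* and *Cd9* are higher in the mutant at day 7 than at day 0, *Thbs2* stands near its day 0 level, and *Aebp1* and *Ccl2* are below it but above ctrl.

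The same genes were then followed in libraries that the comparison does not use. Cre + NFIA against Cre at day 7 asks what full-length NFIA changes. Of the 11878 genes 242 (2.04%) were called higher and 188 (1.58%) lower there. Of the 472 genes lower in the mutant, 181 (38.3%) were called higher with full-length NFIA, and their median log2 fold change was 1.45 beside -0.06 for all genes. Of the 96 genes higher in the mutant 43 (44.8%) were called lower with full-length NFIA, with a median of -1.50, and 1, *Nfia* itself, was called higher. *Fabp4* was at 4960 ± 1880 FPKM in libraries labelled Cre and at 14600 ± 115 FPKM in Cre + NFIA, a gene where the mutant level of 1040 ± 477 FPKM lay below that of Cre alone. *Pparg* was at 22.4 ± 5.55 and 60.0 ± 3.34 FPKM, and *Grem1* at 14.1 ± 4.68 and 2.55 ± 0.402 FPKM. *Car3* was at 39.0 ± 5.54 FPKM in Cre + NFIA against 20.4 ± 8.80 FPKM for the libraries labelled Cre, under 3-fold and not called. Its level in Cre + NFIA lay far below the 151 ± 19.9 FPKM of ctrl. *Rbp4* and *Cox8b* stood at 322 ± 21.1 and 111 ± 4.02 FPKM in Cre + NFIA beside 83.9 ± 4.64 and 12.3 ± 2.30 FPKM in ctrl, a difference that was not tested.

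Over differentiation of Cre + NFIA cells, day 7 against day 0, 696 genes (5.86%) were called higher and 394 (3.32%) lower. Of the 472 genes lower in the mutant at day 7, 440 (93.2%) were called higher over this course, with a median log2 fold change of 2.77. Of the 96 higher genes 44 (45.8%) were called lower, with a median of -1.38, beside -0.05 for all tested genes.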

How the data were processed

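Total RNA was sequenced as stranded mRNA libraries. Per the labels and methods, the authors aligned reads to mm9 with STAR 2.5.3a, kept unique alignments and counted reads on the strand of the gene, and they deposited FPKM values per gene for each of the 24 libraries, normalized to gene length and total counted reads. The gene annotation behind them is not given in the sources used here. Divided by the value of 1 read for the gene's length, every deposited value above 0 came within 0.1 of a whole number of reads, and the sums of these reads gave the library totals.

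Genes with at least 1 FPKM in at least 3 of the 6 day 7 ctrl and mutant libraries were tested with limma 3.58.1 in R 4.3.3, on log2(FPKM + 1) with a mean-variance trend, two-sided, in a fit of these 6 libraries, with Benjamini-Hochberg adjustment over all 11878 genes. A gene was called at an adjusted p under 0.05 and at least 3-fold. Fold values given as N-fold are ratios of mean FPKM, and ± is the SD of 3 libraries. Day 0, the difference between days and both comparisons with Cre + NFIA were fitted on the same genes. Groups came from the labels. Named genes were NFI genes, genes of the study's question and the 4 leading members of each list. Added to these were the 12 with the largest change in each direction and the leading genes of the other contrasts. Genes added by size of change had to have at least 200 bases and no overlap between the libraries of the groups. Their lack of overlap was therefore set by the choice. A few genes that this rule or the lists hold are not reported here. The members and lists were chosen with earlier results of these data known. The alternatives were other pseudocounts, filters, scalings, tests and left-out libraries. The procedure was tested on simulated data. Gene positions are from GENCODE on mm9. Intervals of read ratios are exact and cover counting error only.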

Additional observations from a re-analysis of the deposited data

Results flagged for a closer look

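The results below stood out because the difference between mutant and ctrl was not the same at day 0 and day 7, by a limma test of that difference over 12 libraries. It was called in 557 genes in the lower and in 242 in the higher direction at day 7 against day 0. The difference between the days on the log2 scale was -5.44 in *Orm1*, -5.25 in *Fabp4*, -5.21 in *Cfd* and -5.16 in *Car3*. It was 3.92 in *Nov*, 3.24 in *Cpxm1*, 3.19 in *Ptn* and 3.14 in *Pamr1*.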

How the results depend on the processing

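The day 7 calls were 472 lower and 96 higher. A pseudocount of 5 FPKM gave 271 lower and 30 higher, and a pseudocount of 0.1 FPKM gave 640 lower and 283 higher. Limma voom on recovered reads gave 645 lower and 321 higher. Median-of-ratios size factors gave 537 lower and 53 higher, and no fold limit 2952 lower and 4772 higher. Voom still called 471 of the 472 and 95 of the 96. The 27 calls at day 0 became 85 and 8 with pseudocounts of 0.1 and 5, 108 with voom and 3376 with no fold limit. For the difference between days, lower calls became 338 with a pseudocount of 5 and 3125 with no fold limit, and higher calls 554 and 63 with pseudocounts of 0.1 and 5, 614 with voom and 4247 with no fold limit. Lower genes called higher with full-length NFIA against Cre became 93 with a pseudocount of 5, 286 with voom and 2434 with no fold limit. Higher genes called lower there became 126 and 17 with pseudocounts of 0.1 and 5, 28 with median-of-ratios, 158 with voom and 3707 with no fold limit. Over differentiation of Cre + NFIA cells, lower genes called higher became 256 with a pseudocount of 5 and 2662 with no fold limit, and higher genes called lower 139 and 12 with pseudocounts of 0.1 and 5, 19 with median-of-ratios, 171 with voom and 3761 with no fold limit. In each of these counts the set of called day 7 genes was redrawn under the same setting. Leaving out 1 library at a time gave 448 to 495 lower and 89 to 129 higher at day 7, 20 to 33 at day 0, and 535 to 589 lower and 209 to 297 higher for the difference between days. The overlaps with full-length NFIA ranged from 129 to 238 and from 36 to 57, and those over differentiation from 420 to 455 and from 34 to 62. *Nfic* reversed to -0.044 with median-of-ratios size factors (limma adjusted p = 0.611). Of 132 single genes 74 kept direction and call under every alternative. The cause of these changes was not tested. Same-numbered ctrl and mutant libraries at day 7 deviated together with correlations of 0.061, 0.278 and 0.125. Each was the highest of that mutant library with any ctrl library, while ctrl replicate 1 correlated more with mutant replicate 3 (0.101). Whether same-numbered libraries shared a batch or culture was not tested. A replicate block gave 472 lower and 96 higher calls, with all 472 and 96 shared. Depth limits genes near the floor of 3 reads, and 14 lower and 4 higher genes had at most 3 reads in every library of the low group.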

Other observations

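Of 9 tested genes of the insulin-like growth factor (IGF) system 6 were higher and 2 lower in the mutant at an adjusted p under 0.05 by limma, with a median log2 fold change of 1.02 against 0.13 for all genes. The binding proteins *Igfbp6* and *Igfbp2* were at 62.2, 66.8 and 53.5 and at 9.21, 8.42 and 7.16 FPKM in ctrl, and at 177, 192 and 138 and at 20.7, 35.5 and 24.8 FPKM in the mutant, with no overlap. The ligand *Igf2* stood at a log2 fold change of -1.09. Of 13 tested complement genes 8 were higher and 2 lower. The classical pathway protease genes *C1ra* and *C1s1* were both 2.55-fold higher, while *Cfd* of the alternative pathway was the one member called, 32.8-fold lower.

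Cell cycle genes had no common direction. Of 35 tested members 14 were higher and 7 lower with a median of 0.08, beside 40.2% higher and 24.9% lower over all tested genes. Median-of-ratios scaling gave 6 higher, 13 lower and a median of -0.08. The inhibitor *Cdkn2b* was 2.06-fold higher and the inhibitor *Cdkn2c* 2.32-fold lower. Of 17 tested circadian clock genes 8 were lower and 9 did not pass, beside 24.9% lower over all tested genes. Their median was -0.07 against 0.13 for all genes, with *Per3* and *Dbp* furthest at log2 fold changes of -0.54 and -0.52.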
